A study of Homo sapiens with 6 samples.

Results

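MHC class I antigen processing was followed across MBD2 knockdown and scrambled control clones of LNCaP cells through 10 genes: B2M, TAP1, TAP2, TAPBP, PSMB8, PSMB9, ERAP1, ERAP2, NLRC5 and HLA-DMB. Each gene was read from array features that the platform annotation assigns to that symbol alone, and where a gene had several such features the one with the highest mean over all 6 arrays was taken. All 10 genes were measured, among 16704 genes in all. HLA-DMB belongs to the class II pathway, so 9 of the 10 genes match the class I name.

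Class I molecules show short peptides from inside the cell to CD8+ T cells. Proteasomes cut cytosolic proteins, the TAP1-TAP2 transporter carries the peptides into the endoplasmic reticulum, ERAP1 and ERAP2 trim them, and tapasin (TAPBP) holds the transporter beside empty class I molecules while they load. A class I molecule is a heavy chain held by the small invariant chain B2M and does not reach the cell surface stably without it. Interferon-gamma raises most of these genes, partly through the transactivator NLRC5, and prostate cancers often express them weakly.

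LNCaP is an androgen-responsive line from a lymph node metastasis of prostate cancer. The knockdown group was 3 stably transfected clones that express a hairpin RNA targeting MBD2. This protein recognises CpG dinucleotides that carry methyl groups and belongs to the NuRD repressor complex. The controls were 3 clones with a scrambled hairpin, per the labels also from the siLentGene-2 vector. Cells of both groups were selected by neomycin resistance, and the labels name no interferon treatment. Each clone gave 1 array of cytoplasmic RNA, so the spread within a group is that between separately derived clones, and the number of arrays limits the precision.

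MBD2 itself had log2 values of 7.68, 7.84 and 7.81 in knockdown clones 1, 2 and 3, against 8.73, 9.24 and 9.20 in control clones 1, 2 and 3, so the label of every clone matched its level. The mean level was 2.43-fold lower in knockdown clones, yet with an adjusted p of 0.111 in limma MBD2 did not pass over all genes. Array medians ran between 6.32 and 6.35, and the SD over features was 2.05 for knockdown clone 1, lower than the 2.10 to 2.12 of the other clones. All 5 measured luminal prostate markers, of 9 listed, lay above the upper quartile of every array, with summed log2 levels of 45.9 to 48.4 in knockdown clones and 46.1 to 48.4 in control clones. Of 11 measured haematopoietic markers 4 lay below the lower quartile of every array, including the pan-leukocyte gene PTPRC at 2.43 to 2.64 in knockdown clones and 2.49 to 2.72 in control clones, and LCP1, which LNCaP cells also express, was the 1 marker above the upper quartile. Their summed log2 levels were 52.6 to 54.0 in knockdown clones and 53.1 to 54.0 in control clones. The 7 stromal markers summed to 36.8 to 37.2 in knockdown clones and 36.4 to 37.7 in control clones. Of these, 2 lay below the lower quartile of every array and 1, VIM, lay above the upper quartile of every array. VIM had 8.29, 9.16 and 9.41 in knockdown clones, against 9.75, 8.68 and 9.40 in control clones.

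B2M, the light chain of every class I molecule, had the smallest p of the 10 genes. Its log2 expression was 9.38, 9.52 and 9.56 in knockdown clones 1, 2 and 3, against 9.99, 10.07 and 10.05 in control clones 1, 2 and 3. All knockdown clones lay below all controls, and the gap between the groups was wider than the spread within either. The means were 9.49 ± 0.10 in knockdown clones and 10.04 ± 0.04 in control clones (SD, n = 3 each). The log2 difference of -0.55 (SE 0.08, 95% interval -0.74 to -0.36) left 68.4% of the control level, with an interval of 59.8% to 78.1%. In RNA of whole cultures, less B2M per cell and fewer cells that express it cannot be told apart. By limma's moderated test B2M ranked 18 of 16704 genes, with an unadjusted p of 0.00022 and an adjusted p of 0.200, and so did not pass the threshold of 0.05 over all genes. Permuting its 6 values exactly gave a two-sided p of 0.1, and 3 against 3 allows none smaller. Leaving out 1 clone at a time kept the log2 difference between -0.59 and -0.49, with adjusted p between 0.0509 and 0.607 in limma. Weighting arrays by their fit (0.252 for knockdown clone 1 and 3.43 for knockdown clone 2) let B2M pass in limma (adjusted p = 0.0217).

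**Figure D1:**
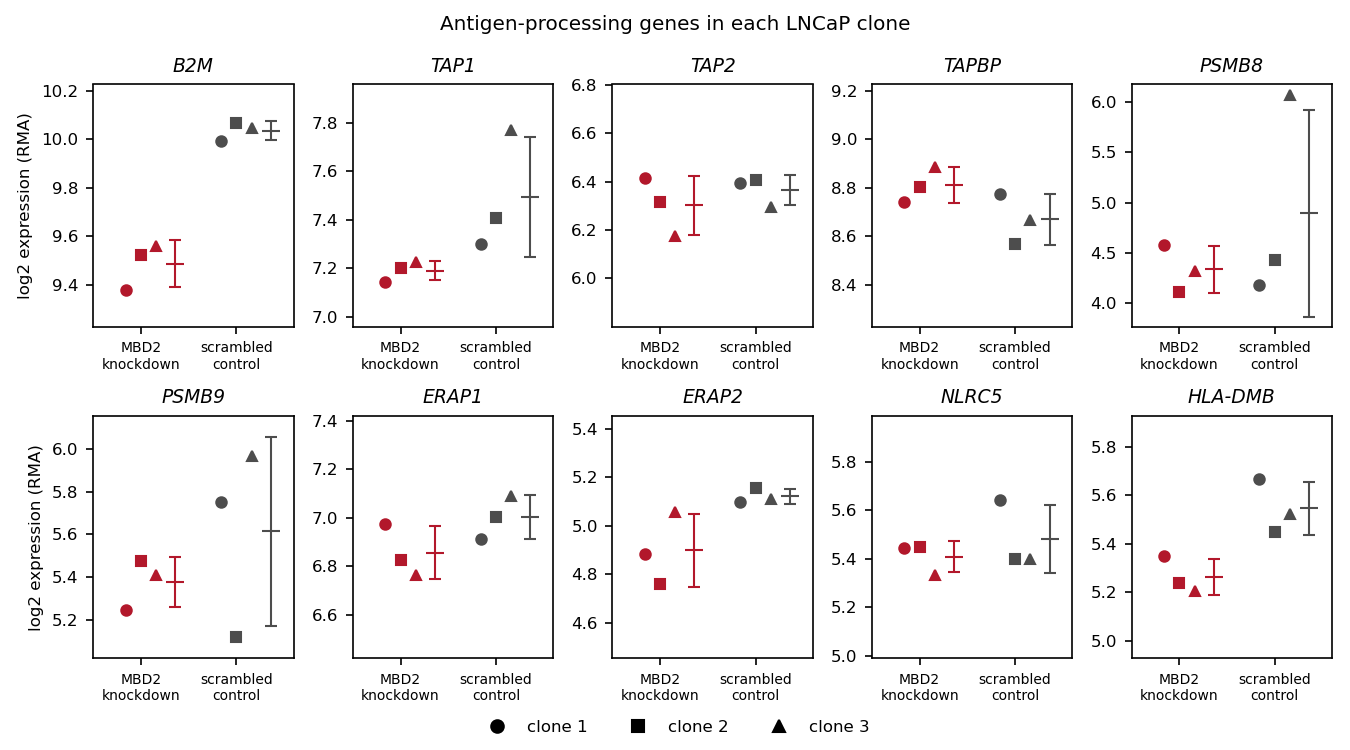
Log2 expression of the 10 genes in each clone, with knockdown clones on the left (red) and scrambled control clones on the right (grey) of each panel. Symbols mark clones 1 to 3, bars show the mean ± SD of 3 clones, and each panel has its own vertical range. B2M, TAP1, ERAP2 and HLA-DMB have all knockdown clones below all controls, and the high triangle for PSMB8 is control clone 3 at 6.08.

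The stretches of DNA before the starts of B2M, TAP1, TAPBP and PSMB8 are shown because these genes gave different patterns over the clones: B2M lay lower in every knockdown clone, TAPBP had the opposite sign, and TAP1 and PSMB8 were highest in control clone 3. They are the 250 bases before a RefSeq start on GRCh38.p14, 5′ to 3′ on the gene's strand: chr15:44711267-44711516 (plus strand) for B2M, chr6:32853705-32853954 (minus) for TAP1, chr6:33314079-33314328 (minus) for TAPBP and chr6:32844048-32844297 (minus) for PSMB8. Capitals mark matches, on either strand, to the interferon-stimulated response element (ISRE, searched as GAAA, any 2 bases and GAAA), the interferon-gamma activated site (GAS, TTCNNNGAA) and the CCAAT box (CCAAT, bound by NF-Y).
B2M: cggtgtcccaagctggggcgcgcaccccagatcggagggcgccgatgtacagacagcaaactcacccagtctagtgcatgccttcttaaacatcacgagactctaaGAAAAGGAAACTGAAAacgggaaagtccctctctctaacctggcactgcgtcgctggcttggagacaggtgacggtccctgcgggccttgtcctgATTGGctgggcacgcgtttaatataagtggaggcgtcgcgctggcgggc
TAP1: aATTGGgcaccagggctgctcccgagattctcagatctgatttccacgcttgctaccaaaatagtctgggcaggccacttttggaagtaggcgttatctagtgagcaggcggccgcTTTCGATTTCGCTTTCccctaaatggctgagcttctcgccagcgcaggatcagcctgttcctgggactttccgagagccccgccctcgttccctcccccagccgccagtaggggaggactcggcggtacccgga
TAPBP: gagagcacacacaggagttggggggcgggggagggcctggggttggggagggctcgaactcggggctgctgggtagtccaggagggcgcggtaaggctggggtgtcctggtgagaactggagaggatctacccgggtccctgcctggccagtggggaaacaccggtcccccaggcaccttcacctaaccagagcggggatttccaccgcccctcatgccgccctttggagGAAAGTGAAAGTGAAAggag
PSMB8: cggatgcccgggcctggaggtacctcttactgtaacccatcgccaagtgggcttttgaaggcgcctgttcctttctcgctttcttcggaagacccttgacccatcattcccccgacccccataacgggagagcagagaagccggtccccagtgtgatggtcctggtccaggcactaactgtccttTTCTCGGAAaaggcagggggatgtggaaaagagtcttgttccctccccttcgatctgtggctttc

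The B2M stretch holds a pair of overlapping ISRE matches that begin 144 and 138 bases before the start and a CCAAT box on the opposite strand 49 bases before it. TAP1 has an overlapping pair beginning 134 and 128 bases before its outer start, in the 487 bases that separate it from the start of PSMB9 on the other strand. TAPBP has an overlapping pair 20 and 14 bases before the start, and PSMB8 has no ISRE match but 1 GAS match 65 bases before its inner start. The outer start of PSMB8, not shown, has no ISRE, GAS or CCAAT match. The inner start of TAP1, also not shown, has 1 GAS match 189 bases before it and no ISRE or CCAAT match. Sequences for 13 starts of 9 of the 10 genes were used. An ISRE match occurred before 5 of the 13 starts (of B2M, TAP1, TAP2, TAPBP and ERAP2), and it occurs before 3.02% of 35095 RefSeq starts. GAS matches occurred before 2 of the 13 starts (of PSMB8 and TAP1), against 6.57% of all starts, and CCAAT boxes before 5 of the 13, against 32.0%. The CCAAT boxes before the outer TAP1 start and before PSMB9 are the same bases, because their stretches overlap on opposite strands. Of these 5 genes with an ISRE match B2M, TAP1 and ERAP2 had all knockdown clones below all controls. Over all genes 8.87% did so. TAP2 had overlapping groups, and TAPBP had overlapping groups with a higher mean in the knockdown clones. Without an ISRE match, HLA-DMB also had all knockdown clones below all controls, while PSMB8, PSMB9 and ERAP1 had overlapping groups. Whether the motif bears on these levels was not tested. The CpG dinucleotides in these stretches, to which MBD2 can bind when they are methylated, numbered 18 before B2M, 16 before the outer TAP1 start, 10 before TAPBP and 11 before the inner PSMB8 start. Over the 13 starts they ran between 0 (ERAP2) and 25 (ERAP1), with a median of 11 over all RefSeq starts. Methylation was not measured here.

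TAP1 and TAP2 code for the chains of the peptide transporter. TAP1 had log2 values of 7.15, 7.20 and 7.22 in knockdown clones 1, 2 and 3, against 7.30, 7.41 and 7.77 in control clones 1, 2 and 3. The groups did not overlap, but control clone 3 stood well above the other 2 controls and the knockdown clones lay close together (SD 0.04). The log2 difference was -0.30 (95% interval -0.60 to -0.01), or 81.0% of the control level, with an unadjusted p of 0.045 and an adjusted p of 0.519 in limma. Without control clone 3 it was -0.17 (adjusted p = 0.800). TAP2 had 6.42, 6.32 and 6.17 in knockdown clones, against 6.40, 6.41 and 6.29 in control clones, so the groups overlapped. Its log2 difference was -0.06, with a 95% interval of -0.27 to 0.15.

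TAPBP was the 1 gene of the 10 with a higher mean in the knockdown clones. Its log2 values were 8.74, 8.80 and 8.89 in knockdown clones 1, 2 and 3, against 8.77, 8.57 and 8.67 in control clones 1, 2 and 3. Knockdown clone 1 lay below control clone 1, so the groups overlapped. The log2 difference of 0.14 had a 95% interval of -0.06 to 0.35 (adjusted p = 0.677 in limma), and over the 3 features of the gene it ran between 0.14 and 0.17. Without control clone 2 it was 0.09.

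**Figure D2:**
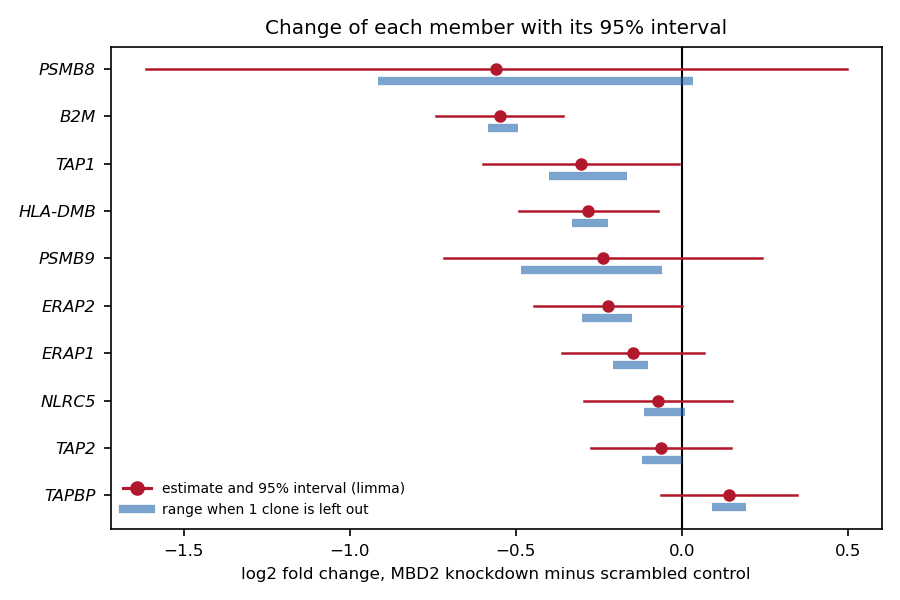
Log2 fold change of each gene, MBD2 knockdown minus scrambled control, on the horizontal axis. Red points and lines are the estimate and its 95% interval from limma, and the blue bars give the range when each clone is left out in turn. B2M has a narrow range of -0.59 to -0.49, while that of PSMB8 runs between -0.92 and 0.03.

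PSMB8 and PSMB9 replace standard catalytic subunits in the immunoproteasome, the interferon-induced form that favours class I peptides. PSMB8 had log2 values of 4.57, 4.11 and 4.32 in knockdown clones 1, 2 and 3, against 4.18, 4.42 and 6.08 in control clones 1, 2 and 3. Control clone 3 alone stood apart, and the other 5 clones overlapped. In each of those 5 the value lay below the lower quartile of its array (4.72 to 4.83), so PSMB8 was dim there and the distance of control clone 3 from them has no firm size. The log2 difference of -0.56 had the widest interval of the 10 genes (-1.62 to 0.50, adjusted p = 0.763 in limma), and without control clone 3 it was 0.03. PSMB9 had 5.25, 5.48 and 5.41 in knockdown clones, against 5.75, 5.12 and 5.97 in control clones. Its lowest and highest clones were both controls, and the log2 difference of -0.24 (adjusted p = 0.784 in limma) became -0.06 without control clone 3 and -0.48 without control clone 2.

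Control clone 3 carried the highest value of all 6 arrays in 4 of the 10 genes (PSMB8, PSMB9, TAP1 and ERAP1), where 14.6% of all genes were highest in that clone. Ranked by how far control clone 3 lay above the mean of the other 2 controls, PSMB8 was number 16, PSMB9 number 241, TAP1 number 425 and ERAP1 number 3051 of 16704 genes. The proteasome activator genes PSME1 and PSME2, which are also interferon-gamma targets, were highest in this clone as well. PSME1 had 8.97, 8.90 and 8.89 in knockdown clones 1, 2 and 3, against 8.96, 8.92 and 9.39 in control clones 1, 2 and 3. PSME2 had 7.50, 7.45 and 7.55 in knockdown clones, against 7.54, 7.62 and 7.98 in control clones. B2M (0.01 over the mean of the other 2 controls on the log2 scale), TAPBP (-0.0029) and NLRC5 (-0.12) were not high in control clone 3. PSMB10, which codes for the remaining inducible catalytic subunit, had 7.17, 7.02 and 7.07 in knockdown clones, against 7.20, 6.97 and 6.96 in control clones. What set control clone 3 apart was not tested.

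**Figure D3:**
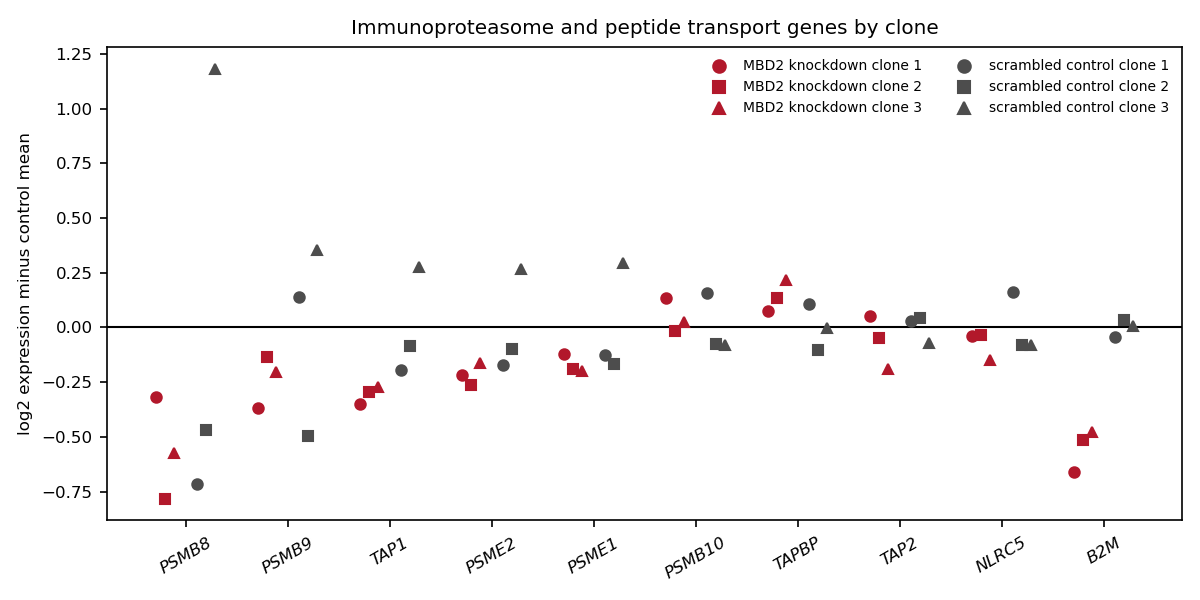
Log2 expression minus the mean of the control clones, for immunoproteasome, proteasome activator and peptide-loading genes in each clone, with knockdown clones in red to the left of control clones in grey. Control clone 3 (grey triangle) is far above the other clones for PSMB8 and highest for PSMB9, TAP1, PSME2 and PSME1, and the B2M values of the knockdown clones sit between -0.66 and -0.48.

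The aminopeptidases of the endoplasmic reticulum, ERAP1 and ERAP2, cut class I peptides to their final length and are neighbouring genes. ERAP2 had log2 values of 4.88, 4.76 and 5.06 in knockdown clones 1, 2 and 3, against 5.10, 5.16 and 5.11 in control clones 1, 2 and 3. The groups did not overlap, although knockdown clone 3 lay only just below the controls. ERAP2 was dim, and in knockdown clones 1 and 2 it lay just above the lower quartile of the array (4.83 and 4.73). The log2 difference was -0.22 (95% interval -0.44 to 0.0009, unadjusted p = 0.051 and adjusted p = 0.534 in limma). ERAP1 had 6.98, 6.83 and 6.76 in knockdown clones, against 6.91, 7.00 and 7.09 in control clones. Knockdown clone 1 lay inside the control range, and the log2 difference was -0.15 with an interval of -0.36 to 0.07.

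NLRC5, the transactivator of class I genes, had log2 values of 5.44, 5.45 and 5.34 in knockdown clones 1, 2 and 3, against 5.64, 5.40 and 5.40 in control clones 1, 2 and 3. The groups overlapped, and the log2 difference of -0.07 had a 95% interval of -0.30 to 0.15. HLA-DMB codes for a chain of HLA-DM, which helps load peptides onto class II molecules. It had 5.35, 5.24 and 5.20 in knockdown clones 1, 2 and 3, against 5.67, 5.45 and 5.52 in control clones 1, 2 and 3. The groups did not overlap, and the log2 difference was -0.28 (95% interval -0.49 to -0.07, unadjusted p = 0.015 and adjusted p = 0.399 in limma), or 82.3% of the control level. A second feature of the gene gave -0.29. HLA-DMA, which codes for the partner chain of the same dimer, had 7.02, 7.20 and 7.50 in knockdown clones, against 7.13, 7.24 and 7.34 in control clones, a log2 difference of -0.0018.

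Across the 10 genes, 0 passed an adjusted p of 0.05 in limma, where 0% of all genes did. At an unadjusted p under 0.05, 3 were lower (B2M, HLA-DMB and TAP1) and 0 higher, where 5.45% of all genes were lower and 3.93% higher. In 4 genes (these and ERAP2) all knockdown clones lay below all controls, where 8.87% of all genes did so, and in 0 genes did they all lie above, where 6.57% did. The mean was lower in the knockdown clones for 9 of 10 genes, against 51.3% of all genes, and the median log2 difference was -0.23 against -0.0043 over all genes. By clone, the median of the 10 genes against the mean of the controls was -0.22, -0.23 and -0.22 for knockdown clones 1, 2 and 3, beside 0.0028, -0.08 and 0.0035 in control clones 1, 2 and 3. The control values of each gene average 0 here by construction, and the 3 knockdown clones share that reference. Without control clone 3 the median log2 difference was -0.11, with 8 of 10 genes lower. PSMB8, TAP1, PSMB9, TAP2 and HLA-DMB lie side by side and the 10 genes were chosen with earlier results known, so these counts describe the list and carry no test.

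The other genes of the pathway were read from the same fit. Of 86 genes listed 71 were measured and 0 passed over all genes. At an unadjusted p under 0.05 in limma, 6 of the 71 were lower and 1 was higher, where 5.45% of all genes were lower and 3.93% higher. The median log2 difference was -0.08. Among the 8 other genes whose products pair with B2M (HFE, MR1, FCGRT and the CD1 genes), 4 were lower and 4 higher, with a median of 0.00020. HFE, a regulator of iron uptake, had -0.15 and MR1, which presents vitamin B metabolites, also had -0.15.

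The proteasome core was lower on average in each of its 14 measured genes (PSMA1 to PSMA7 and PSMB1 to PSMB7), with a median log2 difference of -0.14 and a range of -0.30 to -0.02. None of them passed over all genes, 4 had an unadjusted p under 0.05 in limma as lower, and in 9 all knockdown clones lay below all controls. Over all genes 51.3% had a lower mean, 5.45% had such a p as lower and 8.87% had all knockdown clones below all controls. These shares are not matched for level. All 14 core genes lay above the upper quartile of every array, which was 7.85 to 7.89 in knockdown clones and 7.92 in control clones. Whether other genes as bright lay as low was not tested. PSMA1, an outer-ring subunit, had 9.05, 9.14 and 8.98 in knockdown clones 1, 2 and 3, against 9.27, 9.33 and 9.37 in control clones 1, 2 and 3 (adjusted p = 0.393 in limma). PSMB6, the standard subunit that PSMB9 replaces, had 9.27, 9.19 and 9.11 in knockdown clones, against 9.54, 9.49 and 9.33 in control clones. The mean of the core genes, set against that of the controls, was -0.11, -0.14 and -0.20 for knockdown clones 1, 2 and 3, beside 0.03, 0.04 and -0.07 in control clones 1, 2 and 3. These control values average 0 by construction. The list of proteasome activators with PSMB10 and POMP had 5 of 6 genes lower, with a median of -0.13 and 0 past an unadjusted p of 0.05 in limma.

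Among peptide-loading factors and chaperones, 5 of 6 measured genes were lower, with a median of -0.07. TAPBPL, a tapasin relative that edits the peptides of class I molecules, had 6.61, 6.75 and 6.72 in knockdown clones 1, 2 and 3, against 6.82, 6.92 and 7.01 in control clones 1, 2 and 3. These groups did not overlap, and the log2 difference was -0.22 (adjusted p = 0.494 in limma), opposite in sign to that of TAPBP. CALR, calreticulin, had -0.10. Of 6 measured cytosolic and other trimming peptidases 3 were lower and 3 higher, with -0.15 for TPP2 and -0.18 for BLMH. Of 9 measured class II presentation genes beside HLA-DMB, 5 were lower and 4 higher with a median of -0.0018, and 4 lay below the lower quartile of every array. IFI30, a lysosomal thiol reductase, had 0.15 and HLA-DPA1 had -0.16.

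**Figure D4:**
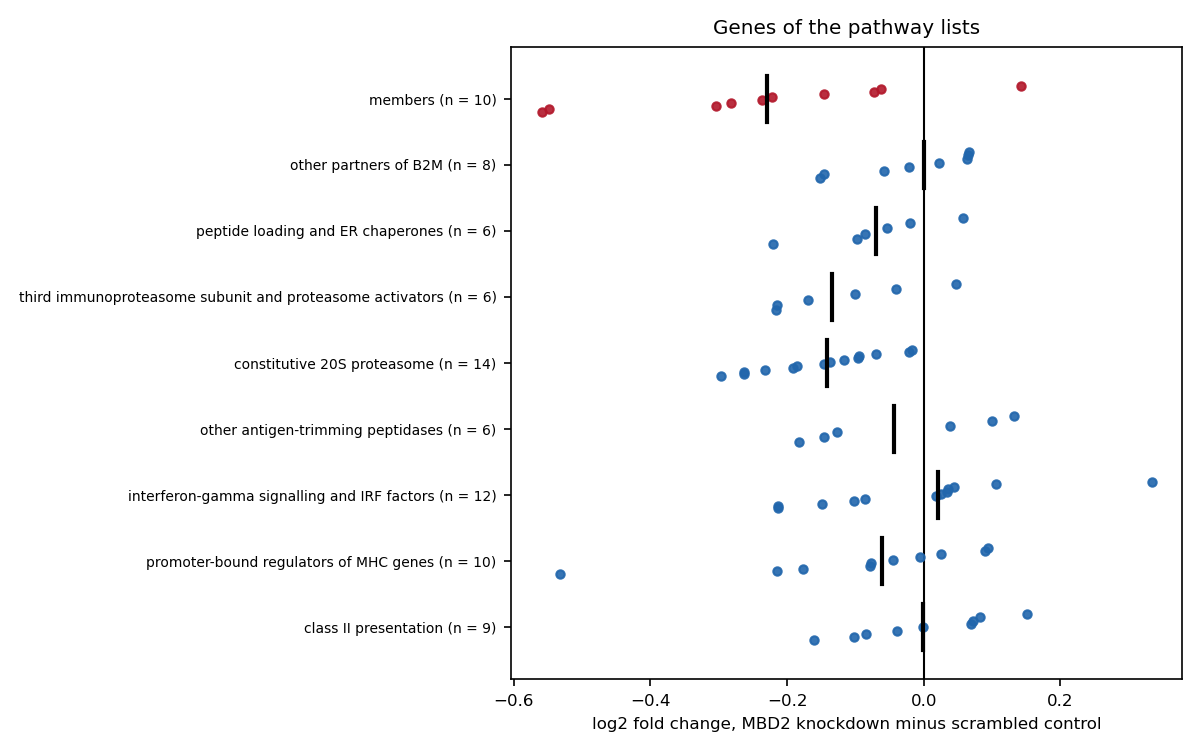
Log2 fold change, MBD2 knockdown minus scrambled control, of each measured gene in the lists of the antigen presentation pathway, with the number of genes in brackets. Each point is a gene and each black bar the median of its list. The 10 members have a median of -0.23 and the 14 core proteasome genes all lie to the left of 0, with a median of -0.14, while the class II genes are centred at -0.0018.

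Regulators of these genes were mixed. NFKB1, an NF-kappaB subunit that can bind class I and B2M promoters, had log2 values of 7.56, 7.32 and 7.44 in knockdown clones 1, 2 and 3, against 8.03, 7.82 and 8.07 in control clones 1, 2 and 3. All knockdown clones lay below all controls, and the log2 difference was -0.53 (SE 0.10, adjusted p = 0.229 in limma), close in size to that of B2M. RFX5, of the complex that binds MHC promoters, had 8.83, 8.75 and 8.76 in knockdown clones, against 8.71, 8.97 and 9.30 in control clones, and was highest in control clone 3. In that list 7 of 10 measured genes were lower, with a median of -0.06. Of 12 measured genes of interferon-gamma signalling 5 were lower and 7 higher, with a median of 0.02. IFNGR2, a chain of the interferon-gamma receptor, had 7.34, 7.39 and 7.38 in knockdown clones 1, 2 and 3, against 6.73, 7.15 and 7.22 in control clones 1, 2 and 3, with no overlap (log2 difference 0.33, adjusted p = 0.494 in limma). The receptor-bound kinase gene JAK2 had -0.21.

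Genes next to the 10 in the genome were read from the same fit. In the MHC class II region TAP2, PSMB8, TAP1, PSMB9 and HLA-DMB follow each other with 0 other measured genes between them. The 5 measured genes on each side had a median log2 difference of -0.02, with 6 of 10 lower and 1 at an unadjusted p under 0.05 in limma. Among measured genes HLA-DMA follows HLA-DMB directly and HLA-DOB (-0.10) precedes TAP2. Around B2M the 10 neighbours had a median of -0.03 and a range of -0.22 to 0.15, with 5 of 10 lower, so none of them differed as much as B2M (-0.55). The nearest on either side were SPG11 with -0.12 and TRIM69 with -0.22. The neighbours of ERAP1 and ERAP2 had a median of -0.05, those of NLRC5 -0.13 and those of TAPBP -0.03.

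**Figure D5:**
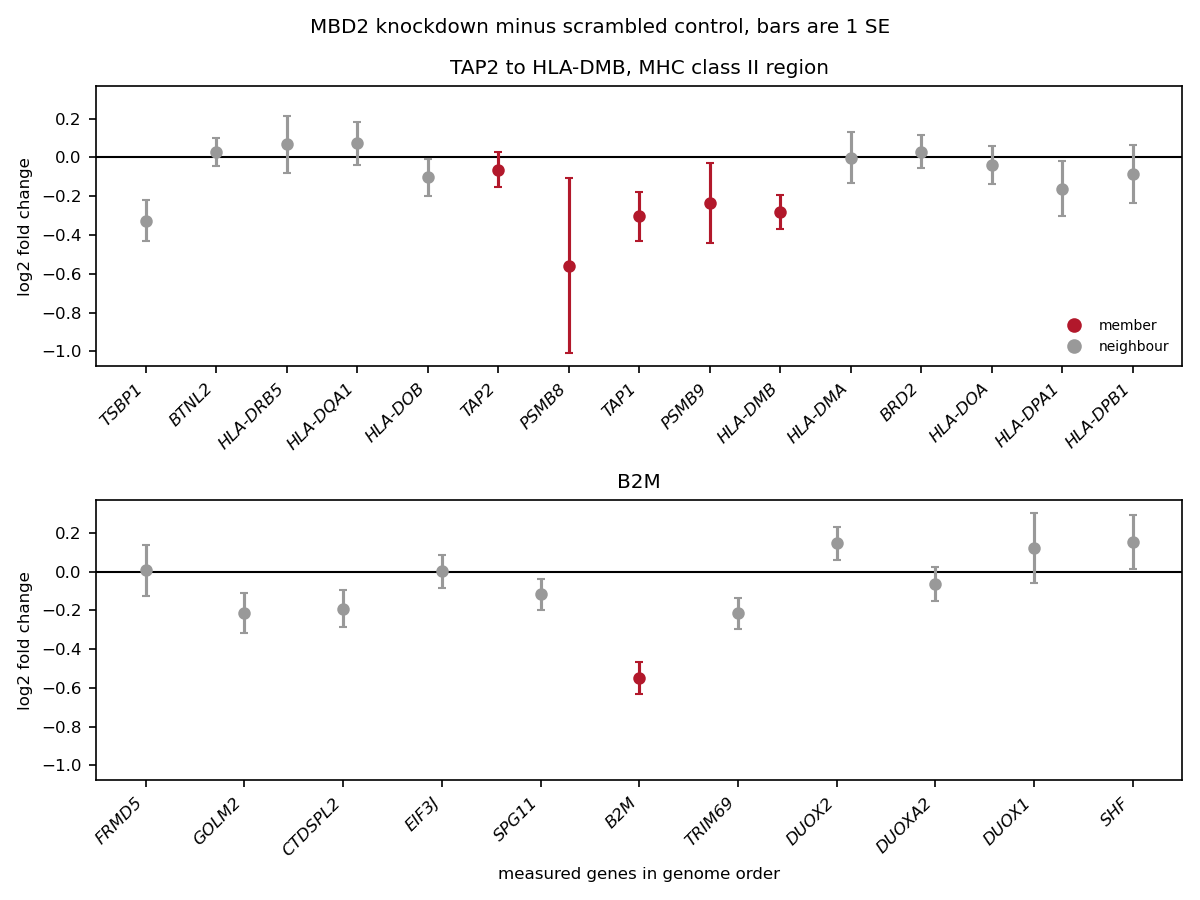
Log2 fold change, MBD2 knockdown minus scrambled control, of measured genes in genome order, with 5 neighbours (grey) on each side of the members (red) in the MHC class II region (top) and around B2M (bottom). Bars are 1 SE from limma. TAP2 (-0.06) and HLA-DMA (-0.0018) flank the lower values of PSMB8, TAP1, PSMB9 and HLA-DMB, and B2M stands alone at -0.55.

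The pattern of B2M over the 6 arrays was most like that of 5 genes outside the pathway, among 6829 genes whose SD over the arrays was at least 0.5 times that of B2M. By Pearson correlation of log2 values over 6 arrays these were CEP135 (0.989), MIS12 (0.987), RUFY3 (0.981), RTKN2 (0.979) and NCR3LG1 (0.978). These coefficients describe 6 points that fall into 2 groups of clones. CEP135 is a centriole protein and MIS12 a kinetochore protein. NCR3LG1, a surface ligand of the natural killer cell receptor NKp30, had log2 values of 7.13, 7.20 and 7.50 in knockdown clones 1, 2 and 3, against 7.91, 8.02 and 7.96 in control clones 1, 2 and 3. Within the pathway the coefficients with B2M were 0.81 for ERAP2, 0.77 for HLA-DMB and 0.75 for TAP1, but 0.40 for PSMB8 and PSMB9, 0.21 for TAP2 and -0.65 for TAPBP.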

How the data were processed

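Each feature of the deposited table has a log2 value that the authors made with RMA, per the submitters' processing notes, which also name oligo and limma. RMA corrects background, normalizes arrays and summarises probes. The notes give the names without versions. The log2 scale was inferred from the value range and RMA, and no further normalization was applied. Of 19712 features 17334 carry 1 gene symbol, which gave 16704 genes. The 10 members had 21 features. The 3 features each of TAP1, PSMB8 and PSMB9 held the same values, and the first was taken.

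Clones were grouped by their titles. Knockdown clones were set against control clones with limma 3.58.1 (lmFit, eBayes; R 4.3.3) without covariates, with Benjamini-Hochberg adjustment over all genes. The test was checked on simulated data. Dim genes were not filtered.

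The members and gene lists were chosen with earlier results of these data known. The rule for named genes takes the 10 members, MBD2, the 2 genes of each pathway list with the smallest p and the 5 genes most like B2M. HLA-DMA, HLA-DOB, PSMB10, SPG11, TRIM69, PTPRC, LCP1 and VIM were named after their values were seen. Genome order and promoters came from RefSeq tables of GRCh38.p14, and the promoter entries were cut to the 250 bases before the start. The motif TGACG was also searched and is present before 5 of the 13 member starts and 21.2% of all starts. Alternatives were other scalings, a filter on dim genes, other variance models, array weights, a replicate block, other feature rules and leaving out each clone.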

Additional observations from a re-analysis of the deposited data

How the results depend on the processing

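With 3 clones a group and 0 genes past the threshold, the counts of calls turned on single clones and on weights. The count of genes past the adjusted threshold was 1 with cyclic loess, 1 with repeated quantile normalization and 325 with array weights, and 0 to 70 when each clone was left out (70 without knockdown clone 1 and 7 without control clone 1). With array weights 1 of the 10 genes passed, B2M (log2 difference -0.52, adjusted p = 0.0217), while 0 passed without any 1 clone. Genes at an unadjusted p under 0.05 numbered 1568, with 3331 under array weights and 1088 to 2671 without 1 clone (2671 without knockdown clone 1), and members 5 under array weights and 2 to 3 without 1 clone. B2M kept its sign in all 15 alternatives, with log2 differences of -0.59 to -0.49. The difference turned round for PSMB8 without control clone 3 (0.033, against -0.92 at the other end without control clone 1), for TAP2 without knockdown clone 3 (0.0011, against -0.12 without knockdown clone 1) and for NLRC5 without control clone 1 (0.0090, against -0.11 without control clone 2), 3 genes whose groups overlapped. The cause was not tested. The scalings tried turned no sign among the 10 genes. ERAP2 and PSMB8 were not tested when the dimmest 30% of genes were left out. Replicate numbers showed no clear pairing of the clones. Deviations from the group means correlated at -0.0252, -0.189 and 0.174 across genes for same-numbered clones. Of the 3 knockdown clones 2 correlated best with a control of another number. Deviations from a mean of 3 clones depend on each other, so a weak pairing could be missed. With the replicate block 0 genes passed, 3 members had an unadjusted p under 0.05 and B2M had an adjusted p of 0.319.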
